A study of Mus musculus with 2 samples.

Results

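The genes described here encode 10 RNA-binding proteins, most of them regulators or components of pre-mRNA splicing: Celf4, Rbfox1, Sf3b2, Srrm2, Son, Pcbp2, Ddx5, Ewsr1, Pspc1 and Matr3. They were chosen by hand from genes already known to hold peaks in these data, so the reads in the Mov10 IP and in the input had a part in choosing them. A peak was assigned to a gene when it shared 1 base or more with one of its exons in GENCODE release M21 on the strand opposite the one listed for the peak. By that rule the 10 genes held 16 peaks, out of 657 peaks over exons of 440 protein-coding genes and 2296 peaks in all. This list is shorter than the one the study describes, so every share of genes or peaks, and every absence of a peak, holds for the peaks analysed here only. The opposite strand was used because, among 645 peaks that touched protein-coding exons of 1 strand only, 639 were listed on the other strand and 6 on that of the gene.

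The RNA came from whole brains of 28 wild-type C57bl/6 pups at postnatal day (P) 2, which were pooled. The Mov10 IP library was made from RNA pulled down with an antibody against Mov10, and the input library from the total RNA before it. Each group was a single library without a replicate. The material was not crosslinked for this assay, and Mov10 was not altered in either library. In pooled whole brain, fewer cells that make an mRNA and less of it per cell cannot be told apart. Of 10 neuron markers, 6 held a peak with an adjusted p of at most 0.05, against 3 of 10 glia markers and 0 of 10 markers of blood and liver, beside 1.82% of 21992 protein-coding genes. All 10 neuron markers, 7 of the glia markers and 8 of the markers of blood and liver lie on a chromosome strand with at least 1 listed peak.

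Splicing removes introns from a pre-mRNA, and proteins that bind short motifs in exons and introns decide which exons are kept. In neurons this choice is set largely by tissue-specific regulators such as the Rbfox and Celf families, which act on top of general factors such as the U2 snRNP, the arginine- and serine-rich (RS) proteins of nuclear speckles and the hnRNPs. Mov10 is an RNA helicase that moves along RNA from 5′ to 3′ and associates with Argonaute. The measurements below concern the mRNAs that encode these splicing proteins, not the RNAs that the proteins bind.

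The enrichment of a peak is given as a ratio, its share of all aligned IP reads over its share of all aligned input reads. The 95% intervals are exact binomial intervals of this ratio. They cover counting error only and compare the 2 libraries, not conditions. All 16 peaks had an adjusted p of at most 0.05 by the authors' peak caller, as did 89.8% of the 657 exon peaks. The interval of the ratio lay above 1 for all 16, and for 99.8% of exon peaks. The caller's second measure, an empirical false discovery rate (eFDR), was at most 0.05 for 6 peaks, in Celf4, Rbfox1, Pspc1 and Son, against 37.7% of exon peaks. These are values of the contrast that the genes were chosen from, and nothing is read from them. Outside the strand with Rbfox1 and Son, the eFDR mostly followed the chromosome strand rather than the gene. Thus 44 of the 48 peaks on the strand with Ddx5 and Ewsr1 shared the value 0.227, and 25 of the 27 on the strand with Sf3b2 shared 0.4. On the strand with Rbfox1 and Son the 88 peaks had 88 distinct values. Those of Rbfox1 and Son were all near 0, at most 1.98e-135.

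**Figure D1:**
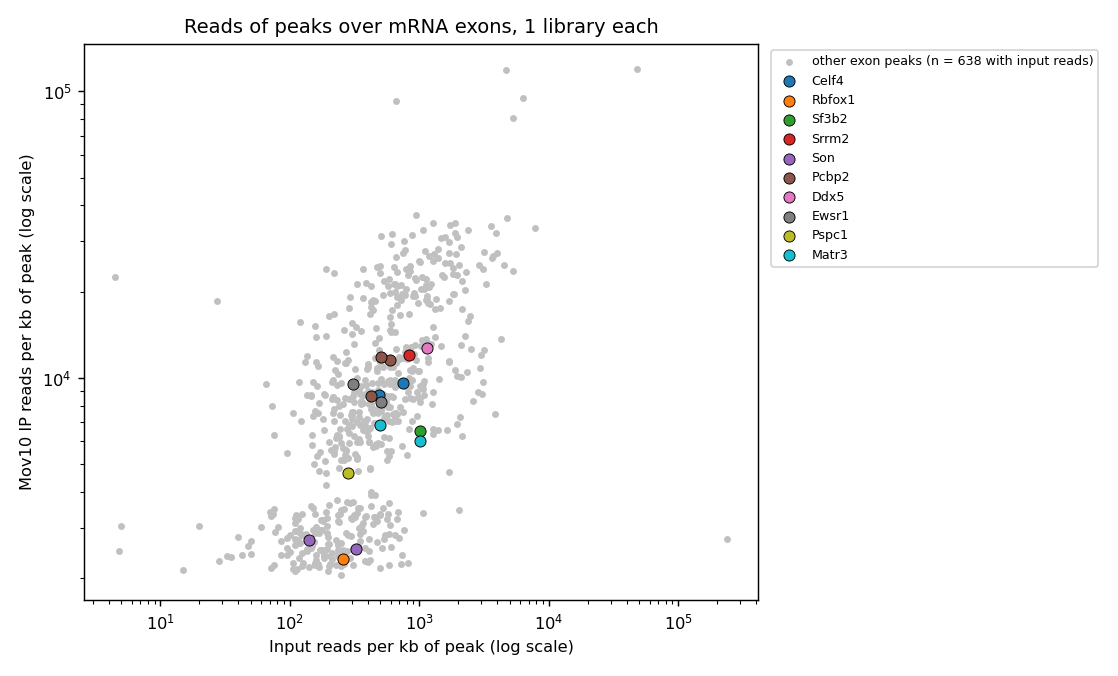
Reads per kb of peak in the Mov10 IP (vertical, log scale) against the input (horizontal, log scale) for peaks over exons of protein-coding genes, 1 point per peak; grey points are the other 638 peaks over 0 in the input and coloured points the 16 peaks of the 10 genes. The points of the 10 genes lie among the grey ones, and those of Rbfox1 and Son form the lowest group in the IP, at 2333 to 2705 reads per kb.

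The ratios of the 16 peaks ran from 4.97 in Matr3 to 26.1 in Ewsr1, a range shown in the plot of ratios. Their median was 12.8 (order-statistic interval 7.50 to 16.2, with a pseudocount of 0.5 on both counts), beside 14.5 (13.6 to 15.4) over all exon peaks. The intervals of these medians count peaks of the same gene as separate values and do not measure replicate spread. The median density was 8437 IP reads and 499 input reads per kb, beside 7922 and 425 over all exon peaks.

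**Figure D2:**
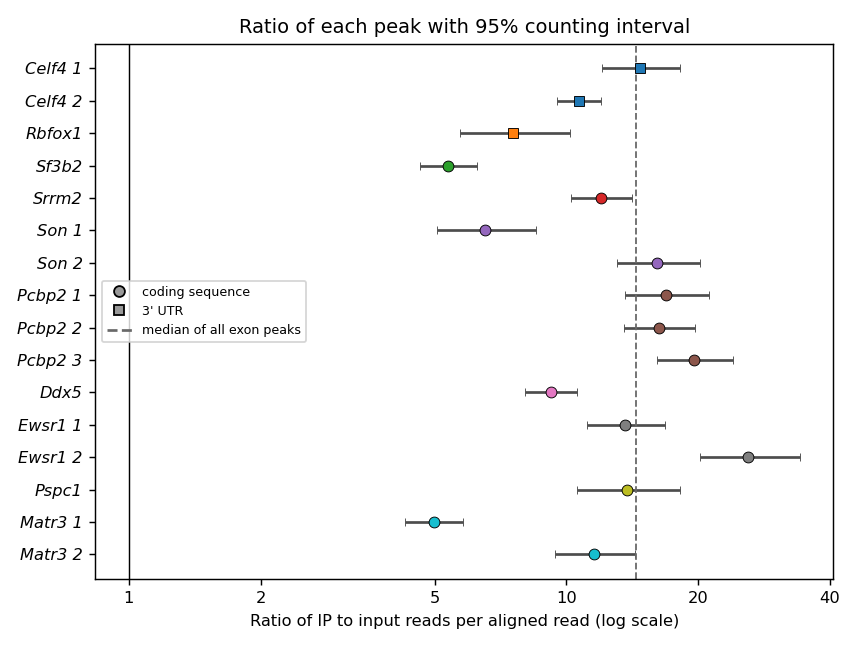
Ratio of IP to input reads per aligned read for each of the 16 peaks (log scale), numbered from the 5′ end of the mRNA where a gene has several; bars are exact 95% intervals for counting error, circles are peaks in coding sequence and squares peaks in the 3′ UTR. The dashed line is the median of all exon peaks, 14.5, and the solid line marks a ratio of 1; every interval lies above 1, from Matr3 peak 1 at 4.97 to Ewsr1 peak 2 at 26.1.

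The IP density of a peak moved with the chromosome strand it was called on. On chromosome 16, the 88 peaks of the strand that holds Rbfox1 and Son ran only from 2052 to 3671 IP reads per kb, whereas the 15 peaks of the strand that holds Srrm2 on chromosome 17 ran from 11685 to 15900. On the 8 chromosome strands with these genes, the densest peak exceeded the least dense by 1.36-fold to 1.79-fold. The same held on all 26 strands with at least 10 peaks, where that fold lay between 1.32 and 1.90. A lower IP density of Rbfox1 and Son than of Srrm2 therefore cannot be told apart from the strand, and IP densities are compared below only within a gene. Since the listed IP densities of a strand differ so little, differences between ratios on that strand follow the input reads more than the IP reads.

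Peaks of the 10 genes were mostly in coding sequence by their exonic bases. Of the 16, 13 (81.2%) were placed there and 3 (18.8%) in 3′ UTRs, beside 58.4% and 31.2% of all exon peaks. Bases off the exons were not counted in either set. Only 67, 98 and 28 of the 205 bases of the 3 Pcbp2 peaks were exonic. Peaks of Ddx5, Ewsr1 and Sf3b2 ran off the exon by 27 to 68 bases. The 3 peaks in 3′ UTRs belonged to Celf4 and Rbfox1, the neuronal splicing regulators, and each of the other 8 genes held its peaks in coding sequence. No other listed peak lay between the first and last exon of any of the 10 genes on either strand, including the 1526 kb of Rbfox1 and the 277 kb of Celf4, most of which is intron. The median GC content of the exonic part of the peaks was 50.3%, beside 54.0% over all exon peaks, and ran from 38.6% in Rbfox1 to 69.0% in Pspc1.

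**Figure D3:**
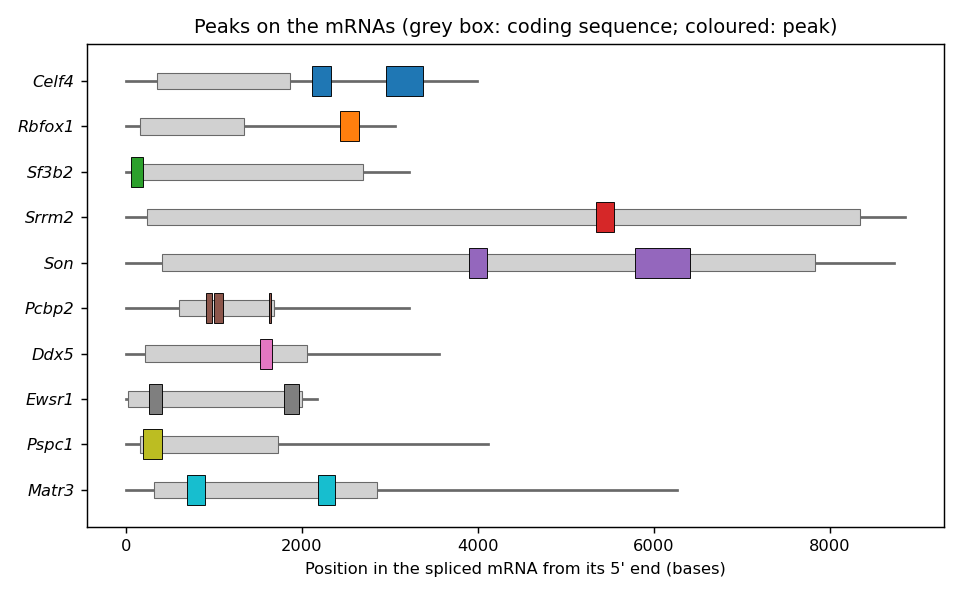
The exonic parts of the 16 peaks (coloured) on the spliced mRNAs, drawn to scale in bases from the 5′ end, with the coding sequence as a grey box and UTRs as a line. Peaks of Celf4 and Rbfox1 lie past the coding sequence and the other 13 over it, from Sf3b2, whose peak begins 6 bases before the start codon, to Pcbp2 peak 3 near the end.

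Son and Srrm2 encode very large RS-rich proteins that form the core of nuclear speckles, the compartments where splicing factors gather. In both mRNAs a peak lay over sequence that encodes arginine and serine. Son held 2 peaks in its exon 3, which is 5970 bases long. Peak 1 (chr16:91657861-91658070, mm10) had 532 IP and 68 input reads, a ratio of 6.52 (5.06 to 8.52). Peak 2 (chr16:91659751-91660380), 630 bases long, had 1704 IP and 88 input reads, a ratio of 16.1 (13.0 to 20.2). Both were within the same exon, yet the ratio of peak 2 was 2.47 times that of peak 1 (1.75 to 3.49), which is beyond counting error. Per kb the IP differed by 1.07-fold between them, while the input of peak 2 was 0.431 times that of peak 1. Of the 209 whole codons under peak 2, 117 (56.0%) encode arginine or serine, against 20.5% over the whole coding sequence and 13 of 69 codons (18.8%) under peak 1. Of 355 coding peaks with at least 20 whole codons, 2 had a higher share than Son peak 2, and the median was 13.6%.

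In Srrm2, 1 peak in exon 11 of 15 (chr17:23819201-23819400, mm10) had 2405 IP and 167 input reads, a ratio of 12.0 (10.3 to 14.1). Arginine and serine codons made up 40 of its 66 codons (60.6%), and none of the 355 coding peaks had a higher share. The whole coding sequence of Srrm2 is itself rich in them, at 39.7% of 2703 codons. In windows of 60 codons the share reached 78.3% in windows wholly clear of the peak and 63.3% in windows centred in it, so the peak did not mark the richest stretch. In Son, windows centred in a peak reached 75.0% and those wholly clear of both peaks 66.7%. The sequences are printed with the arginine and serine codons in capitals, 5′ to 3′ on the mRNA strand (+). Son peak 2 and the Srrm2 peak show this repeated code, whereas all 13 marked codons of Son peak 1 encode serine. For Son peak 2 the 300 bases with the most such codons are given, 68 of 100 codons (chr16:91659968-91660267).
Son peak 1: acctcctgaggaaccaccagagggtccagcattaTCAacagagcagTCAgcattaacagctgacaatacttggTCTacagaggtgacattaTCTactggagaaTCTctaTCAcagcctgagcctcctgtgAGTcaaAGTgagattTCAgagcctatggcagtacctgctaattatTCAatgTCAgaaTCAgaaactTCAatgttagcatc
Son peak 2: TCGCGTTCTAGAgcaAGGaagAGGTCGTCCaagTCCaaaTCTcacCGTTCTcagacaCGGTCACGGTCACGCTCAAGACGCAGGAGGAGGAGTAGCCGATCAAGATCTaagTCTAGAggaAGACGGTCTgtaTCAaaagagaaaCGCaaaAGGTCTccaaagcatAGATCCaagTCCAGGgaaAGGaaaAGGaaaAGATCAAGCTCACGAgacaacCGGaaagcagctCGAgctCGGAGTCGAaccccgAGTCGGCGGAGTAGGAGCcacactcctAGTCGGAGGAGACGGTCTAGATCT
Srrm2 peak: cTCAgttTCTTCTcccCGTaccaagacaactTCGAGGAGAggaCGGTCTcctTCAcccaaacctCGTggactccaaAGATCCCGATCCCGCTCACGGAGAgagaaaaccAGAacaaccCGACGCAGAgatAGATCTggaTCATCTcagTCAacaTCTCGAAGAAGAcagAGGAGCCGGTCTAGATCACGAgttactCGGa

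Ewsr1 encodes a member of the FET family, nuclear proteins with a low-complexity N-terminal region rich in serine, tyrosine, glycine and glutamine and an RNA-binding C-terminal region with arginine-glycine repeats. Its 2 peaks lay 1 in each of these regions. Peak 1, in exon 6 of 18 (chr11:5088001-5088200, mm10), had 1653 IP and 101 input reads, a ratio of 13.6 (11.2 to 16.8). Peak 2, in exon 17 (chr11:5070201-5070400), had 1907 IP and 61 input reads, a ratio of 26.1 (20.2 to 34.2), the highest of the 16. The ratio of peak 2 was 1.91 times that of peak 1 (1.37 to 2.69). As in Son, the IP density differed little, by 1.15-fold, and the input of peak 2 was 0.604 times that of peak 1. Glycine and arginine codons made up 37 of the 57 codons of peak 2 (64.9%), against 26.8% over the whole coding sequence and a median of 11.1% over the 355 coding peaks, none of which had more. Under peak 1 that share was 4 of 48 (8.33%). There, serine, tyrosine, glycine and glutamine codons made up 21 of 48 (43.8%), beside 44.2% over the whole coding sequence, and 10 of the 355 coding peaks had more. This set did not set peak 1 apart. It made up 27 of the 57 codons of peak 2 (47.4%), where glycine counts in both sets, and 6 coding peaks had more. Both exonic parts are printed on the mRNA strand (−), 5′ to 3′. Capitals mark serine, tyrosine, glycine and glutamine codons in peak 1 (chr11:5088001-5088146) and glycine and arginine codons in peak 2 (chr11:5070228-5070400).
Ewsr1 peak 1: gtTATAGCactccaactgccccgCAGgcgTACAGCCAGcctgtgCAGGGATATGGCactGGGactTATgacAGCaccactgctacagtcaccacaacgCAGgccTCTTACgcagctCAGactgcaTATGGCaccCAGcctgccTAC
Ewsr1 peak 2: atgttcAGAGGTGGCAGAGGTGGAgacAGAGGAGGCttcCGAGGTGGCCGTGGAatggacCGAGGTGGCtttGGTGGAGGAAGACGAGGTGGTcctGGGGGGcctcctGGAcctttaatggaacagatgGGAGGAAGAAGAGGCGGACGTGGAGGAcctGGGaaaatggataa

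**Figure D4:**
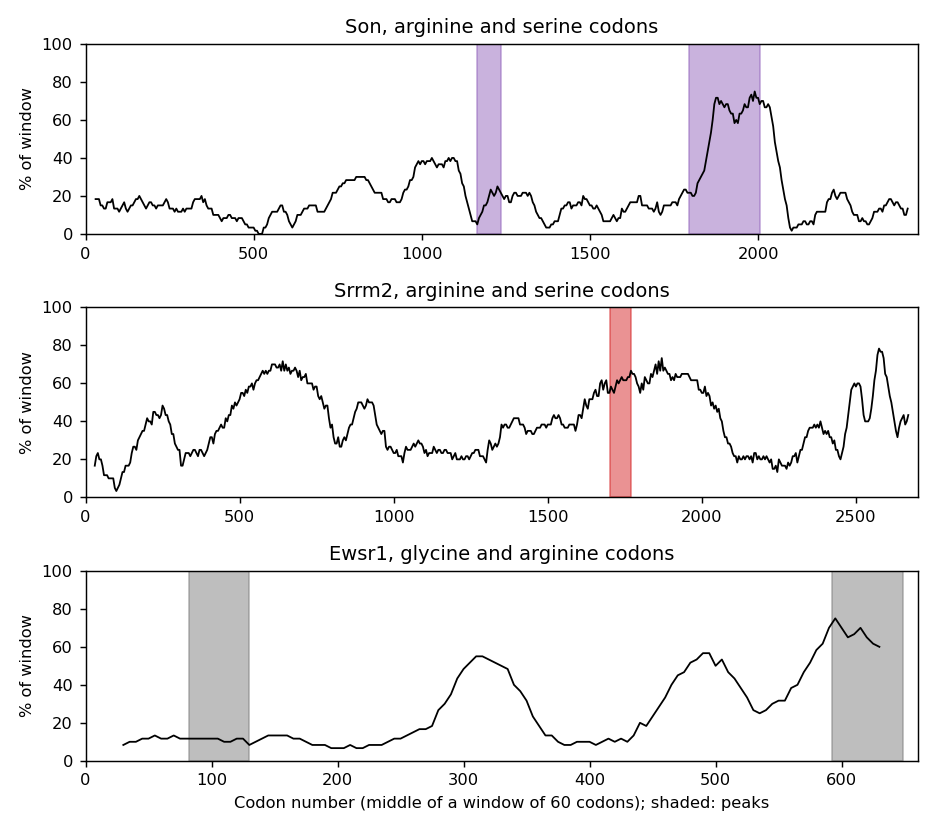
Share of codons for the amino acids named above each panel, in windows of 60 codons along the coding sequences of Son, Srrm2 and Ewsr1 (horizontal, codon number; vertical, percent of the window), with peaks shaded. Windows centred in a peak reached 75.0% in Son, 63.3% in Srrm2 and 75.0% in Ewsr1, and windows wholly clear of the peaks reached 66.7%, 78.3% and 56.7%.

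The values of Ewsr1 carry a further uncertainty, because processed pseudogenes share its sequence. Under peak 2, 173 bases match the pseudogene Gm6627 at 98.8% identity, and under peak 1, 128 bases match Gm7962 at 95.3%. Reads with several alignments had been assigned to a single place by the peak caller. Gm7962 held no peak, but Gm6627 did (chr10:52343461-52343720), with 3707 IP and 411 input reads and a ratio of 7.52 (6.79 to 8.35). Of the 260 bases of that peak, the 197 within Gm6627 matched bases 24 to 220 of the Ewsr1 mRNA at 97.0% identity, next to the 5′ end. The match lies outside both Ewsr1 peaks, and the remaining bases were not placed. With the reads of that peak added, the ratio of Ewsr1 fell from 18.3 (15.6 to 21.6) to 10.6 (9.71 to 11.5), and its place at the head of the 10 genes was lost.

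Ddx5 encodes the DEAD-box helicase p68, a cofactor of splicing, transcription and microRNA processing. Its only peak, in exon 12 of 13 (chr11:106782401-106782600, mm10), had 2542 IP and 230 input reads, a ratio of 9.21 (8.05 to 10.6). All 132 exonic bases match the processed pseudogene Gm12183 at 98.5% identity, and that pseudogene, elsewhere on the same chromosome, held 3 peaks of its own. From the one that matches the 5′ end of the Ddx5 coding sequence, they had 2146, 2056 and 1767 IP reads and 159, 131 and 115 input reads, with ratios of 11.3 (9.57 to 13.3), 13.1 (11.0 to 15.7) and 12.8 (10.6 to 15.6). These 3 peaks matched bases 217 to 330, 731 to 930 and 1131 to 1330 of the Ddx5 mRNA, all within its coding sequence and none of them under the Ddx5 peak. Only the part of a peak within Gm12183 was matched, 114 of 200 bases for the first of them. The longest match of Gm12183 runs from base 217 to 2064 of the Ddx5 mRNA, close to its coding sequence alone. Whether the reads of these 3 peaks came from Ddx5 or from Gm12183 was not tested. With them added, the ratio of Ddx5 was 11.2 (10.3 to 12.1). No other gene of the 10 had a peak with such a match elsewhere of at least 95% identity over 100 bases. For Pcbp2 none could be found, as the exonic parts searched were 67, 98 and 28 bases long. The intronic parts of peaks were not searched.

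Sf3b2 encodes a subunit of SF3B, the part of the U2 snRNP that holds the branch point. Its peak lay over exon 1 (chr19:5295201-5295400, mm10) and had 1300 IP and 202 input reads, a ratio of 5.36 (4.62 to 6.25), the second lowest of the 16. The 139 exonic bases hold 6 bases of 5′ UTR, the start codon and 133 coding bases. The antisense gene AC125059.3 overlaps this peak, and the reads of the 2 genes were separated only by the strand. The exonic part (chr19:5295262-5295400) is printed because it was the only peak to reach a start codon, shown in capitals on the mRNA strand (−).
Sf3b2 peak: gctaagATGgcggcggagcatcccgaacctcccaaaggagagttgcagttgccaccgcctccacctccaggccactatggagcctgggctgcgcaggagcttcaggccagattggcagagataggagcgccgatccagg

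Pcbp2 encodes hnRNP E2, a KH-domain protein that binds poly(C) stretches and acts in splicing, mRNA stability and translation. It was the only one of the 10 genes with 3 peaks, and their ratios could not be separated. Peak 1 (chr15:102478681-102478885, mm10) had 1765 IP and 87 input reads, a ratio of 16.9 (13.6 to 21.2). Peak 2 (chr15:102483191-102483395) had 2359 and 121, a ratio of 16.3 (13.5 to 19.7), and peak 3 (chr15:102490776-102490980) had 2420 and 103, a ratio of 19.6 (16.1 to 24.1). The folds between their ratios were 1.04 to 1.21, and all 3 intervals of these folds included 1, the widest running from 0.854 to 1.57. They lay over exons 5, 6 and 13 of 14, but only 67, 98 and 28 of the 205 bases of each peak were exonic, the rest being intron next to the exon. Peaks on this strand all started from bins of 205 bases, so the caller's edges need not follow those of the exons. Peak 2 also overlaps the lincRNA Gm26518 on the other strand.

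Pspc1 encodes a paraspeckle protein, which partners the splicing-related proteins Sfpq and Nono in nuclear bodies built on the RNA Neat1. Its peak lay in the coding part of exon 1 (chr14:56777911-56778120, mm10), near the 5′ end of the coding sequence. It had 975 IP and 59 input reads, a ratio of 13.8 (10.6 to 18.2). At 69.0% GC it was the most GC-rich of the 16 peaks.

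Rbfox1 encodes a neuronal regulator that binds UGCAUG next to alternative exons. A single peak lay in the 3′ UTR (chr16:7410901-7411110, mm10), in an exon present in 1 of 7 coding transcripts and absent from the one with the longest coding sequence. It had 490 IP and 54 input reads, the fewest of both among the 16, and a ratio of 7.56 (5.70 to 10.2). Of the 16 peaks it was the least GC-rich, at 38.6%.

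Celf4 encodes a protein of the CUG-BP and ELAV-like family that is made mainly in neurons and acts on splicing and on mRNA in the cytoplasm. Both of its peaks lay in the last exon, within the 3′ UTR, 945 bases apart from centre to centre. Peak 1 lay on an exon of 5 of 5 coding transcripts, but peak 2 on one of only 2 of the 5. The reads of the 2 peaks need not come from the same mRNAs. Peak 1 (chr18:25479301-25479510, mm10) had 1823 IP and 103 input reads, a ratio of 14.8 (12.1 to 18.2). Peak 2 (chr18:25478251-25478670), 420 bases long, had 4020 IP reads, the most of the 16, and 314 input reads, a ratio of 10.7 (9.51 to 12.0). The ratio of peak 1 was 1.38 times that of peak 2 (1.10 to 1.76). Per kb, peak 1 had 0.907 times the IP and 0.656 times the input of peak 2.

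Matr3 encodes matrin 3, a nuclear matrix protein with RNA recognition motifs and zinc fingers that represses exons. Its peak 1, in exon 2 of 15 (chr18:35572401-35572600, mm10), had 1205 IP and 202 input reads and the lowest ratio of the 16, 4.97 (4.28 to 5.80). Peak 2, in exon 12 (chr18:35584601-35584800), had 1374 IP and 99 input reads, a ratio of 11.6 (9.43 to 14.3). The ratio of peak 2 was 2.33 times that of peak 1 (1.80 to 3.03), with an IP density 1.14 times and an input density 0.490 times that of peak 1. Glutamate and aspartate codons made up 24 of the 66 codons of peak 2 (36.4%), against 15.8% over the whole coding sequence and a median of 11.9% over the 355 coding peaks. Under peak 1 that share was 14 of 66 (21.2%), also above both values. The readthrough gene Gm28285 shares exon 12 on the same strand and AC121821.3 lies antisense to it, so the reads of peak 2 cannot be told apart from those of Gm28285.

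**Figure D5:**
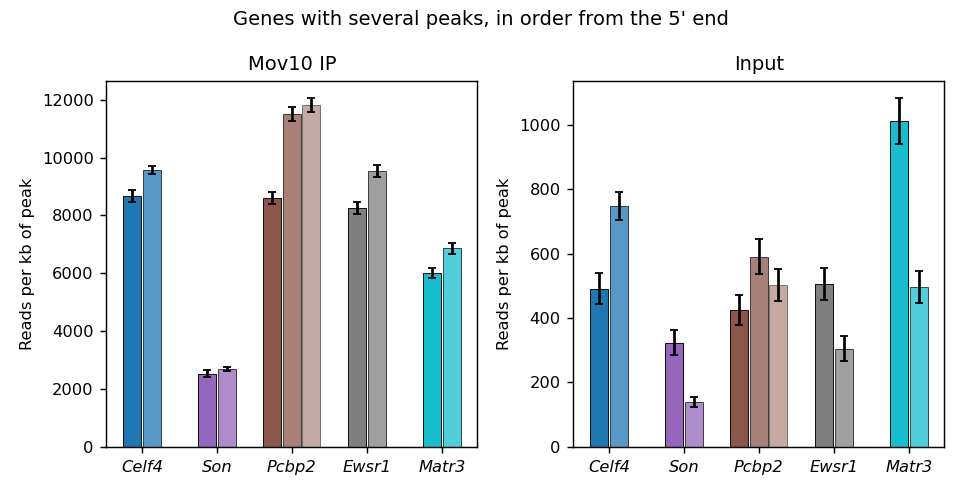
Reads per kb of each peak in the Mov10 IP (left) and in the input (right) for the 5 genes with several peaks, in order from the 5′ end; bars start at 0, and error bars are the square root of the reads on the same scale, for counting error only. In Son, Ewsr1 and Matr3 the bars of the IP are nearly level, with folds of 1.07 to 1.15, while the input of the peak with the higher ratio is 0.431 to 0.604 times that of the other. Peaks of a gene share a chromosome strand, and all listed IP densities span only 1.36-fold to 1.79-fold on the strands of the 10 genes.

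In all 5 genes with several peaks, the input density differed more than the IP density between the peak with the highest and the one with the lowest ratio. Peaks of a gene share a chromosome strand, and listed IP densities spanned only 1.32-fold to 1.90-fold on strands with at least 10 peaks. The pairs were also picked as extremes of the ratio. A larger difference in the input was thus largely set by the list and is not read as a trait of these genes. The input also differed more in 112 (85.5%) of 131 other genes with several exon peaks of at least 10 input reads. The fold between these ratios exceeded 1.5 in 3 of the 5 genes and in 79 (60.3%) of the other 131.

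With reads summed over the peaks of a gene, the order of the ratios was Ewsr1 at 18.3, Pcbp2 at 17.5, Pspc1 at 13.8, Srrm2 at 12.0, Son at 11.9, Celf4 at 11.7, Ddx5 at 9.21, Rbfox1 at 7.56, Matr3 at 7.14 and Sf3b2 at 5.36. Only 2 steps of this order exceeded counting error between neighbours, from Celf4 to Ddx5 (1.27-fold, 1.07 to 1.5) and from Matr3 to Sf3b2 (1.33-fold, 1.09 to 1.62). The intervals of the other 7 steps included 1. With the reads of the peaks on Gm12183 and Gm6627 added, the step from Celf4 to Ddx5 was 1.05-fold (0.918 to 1.19), Ewsr1 came after Ddx5, and the steps past counting error were those from Ewsr1 to Rbfox1 (1.40-fold, 1.02 to 1.88) and from Matr3 to Sf3b2. The genes lie on 8 chromosome strands whose listed IP densities differ, with medians of 2638 IP reads per kb on that of Rbfox1 and Son and 13650 on that of Srrm2, so a place in this order cannot be told apart from the strand.

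Motifs bound by the encoded families were searched on the mRNA strand and on its reverse complement within the exonic part of each peak. TGCATG of the Rbfox family, TGTGTG of the Celf family and CCCTCC of the poly(C)-binding family occurred in 0 of the 16 peaks on the mRNA strand, beside 5.18%, 6.85% and 16.0% of the 657 exon peaks. Thus neither the Rbfox1 nor the Celf4 nor the Pcbp2 peaks held the motif of the protein they encode in these windows. For Pcbp2 only 67, 98 and 28 of the 205 bases of each peak were searched, so nothing is read from that absence. On the reverse strand TGTGTG occurred in 2 of the 16, beside 10.5% of exon peaks. There, TGCATG and CCCTCC occurred in 0, beside 6.39% and 9.74% of exon peaks. GAAGAA, bound by SR proteins, occurred on the mRNA strand in 7 of the 16, beside 17.8% of exon peaks. The 7 were both peaks of Celf4 and Matr3, Ewsr1 peak 2, Son peak 2 and Srrm2, with peaks of the same gene counted separately. Celf4 peak 2 and Son peak 2 were 420 and 630 bases long, beside a median of 205 over all exon peaks. These shares were not adjusted for length. On the reverse strand GAAGAA occurred in 2 of the 16, beside 10.4% of exon peaks. It is made of glutamate codons when read in 1 frame and in another holds arginine codons.

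Of 154 other genes in 8 lists of RNA-binding proteins, 13 (8.44%) held a peak with an adjusted p of at most 0.05, beside 1.82% of 21992 protein-coding genes. All 10 of the genes described here did, by choice. Of the 13, 8 were among 21 hnRNP genes, with Hnrnpr (5085 IP and 116 input reads, ratio 36.5, 30.4 to 44.3) and Hnrnpul1 (4813 and 157, ratio 25.6, 21.8 to 30.2) highest in IP reads, then Hnrnpa1, Hnrnpdl, Hnrnpab, Hnrnpd, Hnrnpc and Hnrnpf. The 11 peaks of the 8 hnRNP genes had a median ratio of 22.7 (12.5 to 37.4), beside 12.8 (7.50 to 16.2) for the 16 peaks of the 10 genes. These intervals overlap and count peaks of the same gene as separate values. The sets were not compared within a chromosome strand. Only 1 of 13 SR protein genes held a passing peak, Srsf4 (1976 IP and 24 input reads, ratio 68.6, 46.0 to 107), and 1 of 15 SR-related genes beyond Son and Srrm2, Luc7l2 (680 and 137, ratio 4.14, 3.44 to 5.01). Among 25 further splicing regulators there were Nova1 (6223 and 314, ratio 16.5, 14.7 to 18.6) and Rbm4, and among 14 FET, paraspeckle and nuclear matrix genes Zfr (1532 and 128, ratio 9.98, 8.33 to 12.0). None of 34 genes of the spliceosome core besides Sf3b2, 12 genes of poly(C)-binding and other KH proteins besides Pcbp2, and 20 DEAD/H-box helicase genes besides Ddx5 held a passing peak. Of these 20 helicase genes, 1 held a peak that did not pass. Another 1 could not be looked up, as its symbol is not in GENCODE M21 (19 were found). Of the 154 genes, 109 lie on a chromosome strand with at least 1 listed peak, and the absence of a peak over the other genes says nothing of their reads.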

How the data were processed

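RNA from P2 mouse brain was sequenced as 1 Mov10 IP and 1 input library. The authors called bases with bcl2fastq 2.17.1.14 and aligned reads with TopHat2 2.1.1 to unmasked mm10, keeping up to 2000 alignments per read. RIPSeeker was then run on each strand, and it assigned reads with several alignments to 1 place. The deposited list gives, for each peak, raw read counts in the IP and the input, an adjusted p and an eFDR, all used as the authors gave them. Not used here was a further IP, made with an irrelevant antibody.

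Ratios were computed from these counts per aligned read, from the totals in the study's methods (IP 71522027, input 59620379). Intervals are exact conditional binomial intervals at 95%, and folds between 2 peaks or genes are conditional odds ratios, which need no library total. With 1 library per group no test between groups was possible. Exons came from GENCODE M21 on the same assembly, and RefSeq exons were not used here. A peak's part of the mRNA was the one with the most exonic bases, coding sequence first where transcripts differ. Bases off the exons were not counted for this. GC content was taken over the exonic part of a peak, in place of the whole peak as planned, since no genome sequence was used. Copies were sought with BLAST+ 2.17.0 among GENCODE transcripts, at 95% identity over 100 bases. The work used Python 3.11.15, pandas 2.3.3, scipy 1.17.1 and matplotlib 3.10.9, and the interval and overlap code was tested on simulated data.

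The 10 genes, the gene lists, the motifs and the codon groups were chosen with earlier results of these data known. The text names all 10 genes with every peak and, in each list, values for at most the 2 genes highest in IP reads that have a peak past an adjusted p of 0.05. Pseudogenes were named for matching a peak. Sequences are given for peaks in coding sequence. Alternatives were uniquely aligned reads (57005129 and 29124706) or reads in all peaks as totals, a pseudocount of 1, an adjusted p of 0.01, the eFDR, at least 50% of a peak in exons, at least 10 IP reads, exons on either strand and the longest coding transcript.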

Additional observations from a re-analysis of the deposited data

How the results depend on the processing

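With totals of uniquely aligned reads every ratio was lower by the same factor, and the 16 peaks ran from 3.05 to 16.0. With the reads in all peaks as totals they ran from 2.36 to 12.4. Under both, all 16 intervals stayed above 1. With the reads in all peaks as totals the median was 6.05 over the 16 peaks and 5.59 over the 10 genes, beside 6.86 over all exon peaks, which fell by the same factor. With an eFDR of at most 0.05 in place of the adjusted p, 4 of the 10 genes and 3 of the 154 other RNA-binding protein genes held a passing peak, against 10 and 13. With at least 50% of the peak in exons, 13 peaks were left, without those of Pcbp2, and the median ratio was 11.5. The other alternatives run, an adjusted p of 0.01, a pseudocount of 1, at least 10 IP reads, exons on either strand and the longest coding transcript, left each count the same and the medians within their intervals. On the longest coding transcript the Rbfox1 peak lay on no exon. Added after the data were seen, leaving out the 3 peaks with a near-identical match elsewhere gave a median of 12.0, and adding the reads of peaks on the copies a median over genes of 11.4 and again 2 steps of the order past counting error, 1 of them another step. Exons of RefSeq and GC content over the whole peak were not run. No paired analysis was possible because each group holds 1 library. Counting error, of at least 54 input reads a peak, is the only error these libraries give.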
